A study of Mus musculus with 4 samples.

Results

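The Polycomb repressive complexes PRC1 and PRC2 and the factors that act against them were followed at the RNA level in primary mouse oligodendrocytes with a knockout of the long noncoding RNA lncOL1. The 37 genes were chosen by name: all of them are listed in the expression tables, among 23444 gene symbols in all, and all are annotated as protein-coding. They are 6 genes of the PRC2 core, 5 PRC2 accessory genes, 8 genes for the PRC1 ligases and their PCGF partners, 7 further canonical PRC1 genes, 6 variant PRC1 genes and 5 opposing factors. RNA-seq was done on 2 control and 2 knockout libraries of oligodendrocyte precursor cultures after 1 day of differentiation in T3, a thyroid hormone that drives this step. The control libraries (Ctrl) carry a single genotype label that names lncOL1+/+ and lncOL1+/- together, so which library is which is not known. The knockout libraries (lncOL1KO) are lncOL1-/-, and all 4 are of mixed background. The labels do not say whether separate animals or cultures gave the libraries, so p-values measure the spread between these libraries alone, and it may be technical. Which part of the lncOL1 locus the knockout removes is not stated in those labels.

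PRC2 places methyl groups on histone H3 at lysine 27, and PRC1 places ubiquitin on histone H2A; both marks go with gene silencing. Canonical PRC1 carries a CBX subunit that reads the PRC2 mark, while variant PRC1 carries Rybp or Yaf2 instead. KDM6 demethylases remove the PRC2 mark, and Bap1 with an Asxl partner removes the PRC1 mark. In the oligodendrocyte lineage, Ezh2 is known for its high level in precursors, and PRC2 for keeping genes of other lineages silent. The series title links lncOL1 with Suz12, which is why the level of these genes in the knockout is of interest.

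lncOL1 (listed as 9630013A20Rik) had 28.9 and 34.01 FPKM (fragments per kilobase of transcript after scaling to library size) in Ctrl and 5.54 and 5.06 FPKM in lncOL1KO libraries, lower in both libraries labelled as knockout, at 16.9% of the control mean and not absent. Each library had 11284 to 11357 genes at 1 FPKM or more, and log2(FPKM + 1) of the genes tested correlated at 0.982 to 0.985 between any pair of libraries (across genes, which are not independent replicates). All 15 oligodendrocyte lineage markers passed 1 FPKM, Mbp and Cnp among those of highest level, and 1 of them, Mbp, was lower in the knockout (2683 and 2655 FPKM in Ctrl and 1501 and 1520.4 FPKM in lncOL1KO libraries, log2 fold change -0.82, limma adjusted p = 0.00504, and 0.0568 or 0.0666 without knockout replicate 1 or 2). Astrocyte markers were present too, with a summed level over 10 genes of 800.3 and 757 FPKM in Ctrl and 749 and 715 FPKM in lncOL1KO libraries, led by Gfap, S100b and Aldoc. The 12 neuron markers, led by Elavl3, Map2 and Tubb3, summed to 240.0 and 245 FPKM in Ctrl and 222 and 216 FPKM in lncOL1KO libraries. This sum rests on the 4 genes tested, since the rest had means below 1 FPKM, so it describes those genes and not the list as a whole. In the authors' deposited table, Rbfox3 was at 0.0824 FPKM for Ctrl and 0.117 FPKM for lncOL1KO. Stmn2 (0.146 and 0.0735 FPKM), Slc17a6, Gad1 and Gad2 were low there too. The log2 fold changes of the 4 tested genes were positive for 2 and negative for 2. Map2 was higher in the knockout in the authors' deposited table (log2 fold change 0.18, q = 0.0812). Of the 4 tested, Elavl3 was lower in the knockout (119 and 117 FPKM in Ctrl and 85.1 and 79.9 FPKM in lncOL1KO libraries, limma adjusted p = 0.0263, and 0.1002 to 0.175 with 1 library left out). Microglia markers summed to 11.3 and 13.01 FPKM in Ctrl and 22.9 and 28.4 FPKM in lncOL1KO libraries over 14 genes, led by Tyrobp, Laptm5 and Fcer1g (means over the 4 libraries). Of the 6 tested, Laptm5 and Tyrobp were higher in the knockout (limma adjusted p = 0.0101 and 0.0119). The limma adjusted p of Laptm5 was 0.0654 or 0.0763 without control replicate 1 or knockout replicate 2, and that of Tyrobp was 0.0892 or 0.113 without knockout replicate 1 or 2. The 10 fibroblast and vascular markers summed to at most 5.24 FPKM, and Acta2, the 1 gene tested, was higher in the knockout (1.15 and 1.72 FPKM in Ctrl and 3.07 and 3.32 FPKM in lncOL1KO libraries, limma adjusted p = 0.0488, and 0.144, 0.184 or 0.283 without control replicate 1, knockout replicate 1 or knockout replicate 2). The authors' deposited table marks more of these markers as significant, 4 of 15 oligodendrocyte and 3 of 10 astrocyte genes as lower and 3 of 10 microglia genes with a completed test as higher. Over all genes with a completed test it marks 5.78% (4.04% as lower). Over all genes tested, limma called 0.528% as higher and 0.783% as lower. No gene of these marker lists was at 0 in all 4 libraries. The part of these other cells in the values below was not tested, and in such bulk samples fewer cells of a type and less RNA per cell cannot be told apart.

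The promoters of 3 PRC2 core genes are shown, Suz12 because it is the subunit named with lncOL1, and Ezh2 and Ezh1 because these paralogs differ widely in level. Each is the window from 250 bases before to 50 after the RefSeq start site (GRCm38.p6), written 5′ to 3′ on the gene's own strand. Capitals mark an E2F-type motif. The positions are chr11:79992856-79993155 (plus strand) for Suz12, chr6:47594981-47595280 (minus strand) for Ezh2 and chr11:101226414-101226713 (minus strand) for Ezh1.
Suz12: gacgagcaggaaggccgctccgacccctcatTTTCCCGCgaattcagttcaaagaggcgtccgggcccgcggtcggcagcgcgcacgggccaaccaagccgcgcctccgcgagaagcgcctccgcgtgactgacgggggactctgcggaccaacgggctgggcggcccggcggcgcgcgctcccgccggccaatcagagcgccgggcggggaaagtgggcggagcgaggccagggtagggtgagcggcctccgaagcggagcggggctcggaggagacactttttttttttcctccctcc
Ezh2: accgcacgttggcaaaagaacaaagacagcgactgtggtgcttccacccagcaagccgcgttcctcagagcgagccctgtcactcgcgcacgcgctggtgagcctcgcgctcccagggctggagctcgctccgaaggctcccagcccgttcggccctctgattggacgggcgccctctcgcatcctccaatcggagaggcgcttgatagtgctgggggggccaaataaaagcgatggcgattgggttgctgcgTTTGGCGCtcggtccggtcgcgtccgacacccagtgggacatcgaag
Ezh1: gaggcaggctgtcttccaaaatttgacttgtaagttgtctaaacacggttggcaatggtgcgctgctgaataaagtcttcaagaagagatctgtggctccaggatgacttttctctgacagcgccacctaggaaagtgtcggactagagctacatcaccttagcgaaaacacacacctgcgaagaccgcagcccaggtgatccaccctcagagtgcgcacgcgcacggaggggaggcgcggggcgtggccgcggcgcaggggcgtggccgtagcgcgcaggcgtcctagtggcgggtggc
The motifs searched, on both strands, were TTTCCCGC, TTTCGCGC, TTTGCCGC and TTTGGCGC, the letters that E2F factors of the cell cycle are known to bind, and none of the 4 contains another. Suz12 has TTTCCCGC, beginning at base -219 with the start site counted as 0, and Ezh2 has TTTGGCGC, beginning at base 3, while Ezh1 has none of the 4 in this window. A match was found in 744 of 32851 promoter windows of all genes (2.26%) and in 3 of 44 windows of the members (6.82%), those of Suz12, Ezh2 and Phf19. RefSeq windows were on hand for 32 of the 37 members. The CpG count was 41 for Suz12, 31 for Ezh2 and 23 for Ezh1, against a median of 7 over all windows and 24 over those of the members. A match describes the letters and is not a binding site.

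None of the Polycomb or opposing genes passed the limma test for a difference between knockout and control. Of the 37, 35 reached a mean of 1 FPKM and entered the test, and 0 of the 35 had a limma adjusted p under 0.05. Over all 11361 genes tested, 1.31% were called (149 genes, 0.528% higher and 0.783% lower in the knockout). With control replicate 1, control replicate 2, knockout replicate 1 or knockout replicate 2 left out, the 149 genes became 56, 75, 51 and 33, and the members called stayed at 0 in each. At an unadjusted p under 0.05, 3 members passed, Phc1 and Kdm6a lower and Pcgf2 higher in the knockout, against 13.7% of all genes tested. The log2 fold changes of the 35 were positive for 18 and negative for 17, with a median of 0.0022 beside 0.0046 over all genes tested, and a median of -0.036 to -0.0028 with 1 library left out. All limma fold changes are differences of mean log2(FPKM + 1), a scale that makes the changes of low genes look smaller than they are.

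The intervals give the range of differences that remain possible for each gene, on the log2(FPKM + 1) scale, which narrows them for low genes. For 34 of the 35 tested members the 95% interval of the log2 fold change lay within 0.5 of 0 in both directions, and the lowest and highest bounds over all 35 were -0.47 (Pcgf5) and 0.60 (Cbx8). These intervals are for 1 gene at a time. In 9 of the 35 the knockout and control libraries did not overlap, 6 lower and 3 higher, against 43.4% of all genes tested (20.7% lower, 22.6% higher). The 9 are Phc1, Kdm6a, Rybp, Pcgf3, Pcgf5 and Ezh2 on the lower side and Pcgf2, Asxl1 and Ezh1 on the higher side.

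**Figure D1:**
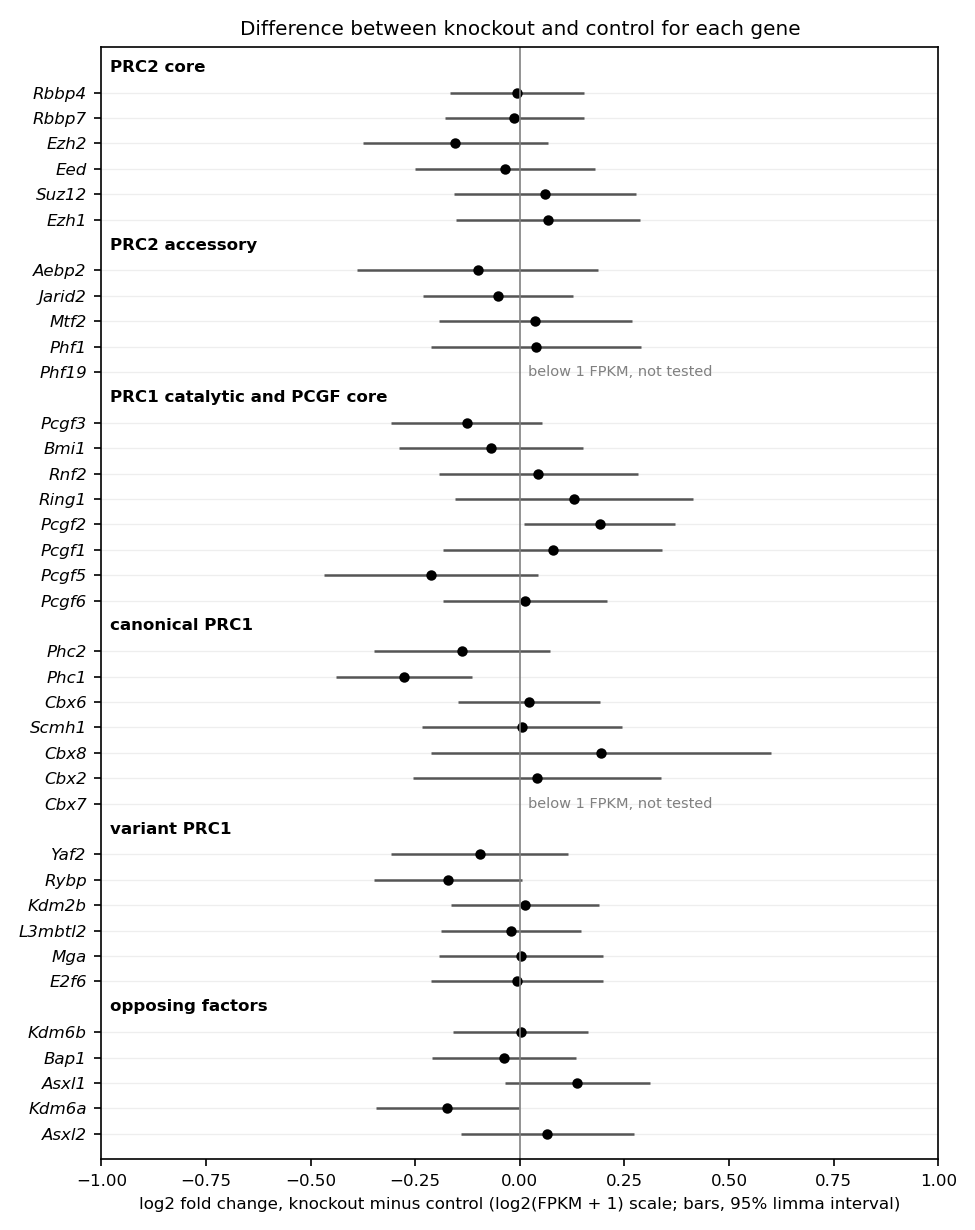
Log2 fold change, knockout minus control, on the log2(FPKM + 1) scale for the 35 tested genes by role, with 95% limma intervals as bars. The intervals of 32 genes cross 0, those of Phc1, Kdm6a and Pcgf2 do not, and Phf19 and Cbx7 were below 1 FPKM and not tested.

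The RNA levels of the members spanned from 0.476 FPKM for Cbx7 to 80.3 FPKM for Phc2 (means over the 4 libraries). The median of the 35 tested members was 11.3 FPKM, beside 11.2 over all genes tested, and 20 members had a mean of 10 FPKM or more. The highest, in order, were Phc2, Rbbp4, Yaf2, Rbbp7 and Pcgf3, each above the next in all 4 libraries. From Pcgf3 down to Pcgf6 every neighbour in the order had values that overlapped over the 4 libraries. At the low end Cbx2, Phf1, Ezh1, Phf19 and Cbx7 lay below all others, where Phf1 and Ezh1 overlapped. In all, 28 of the 36 neighbouring pairs overlapped.

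**Figure D2:**
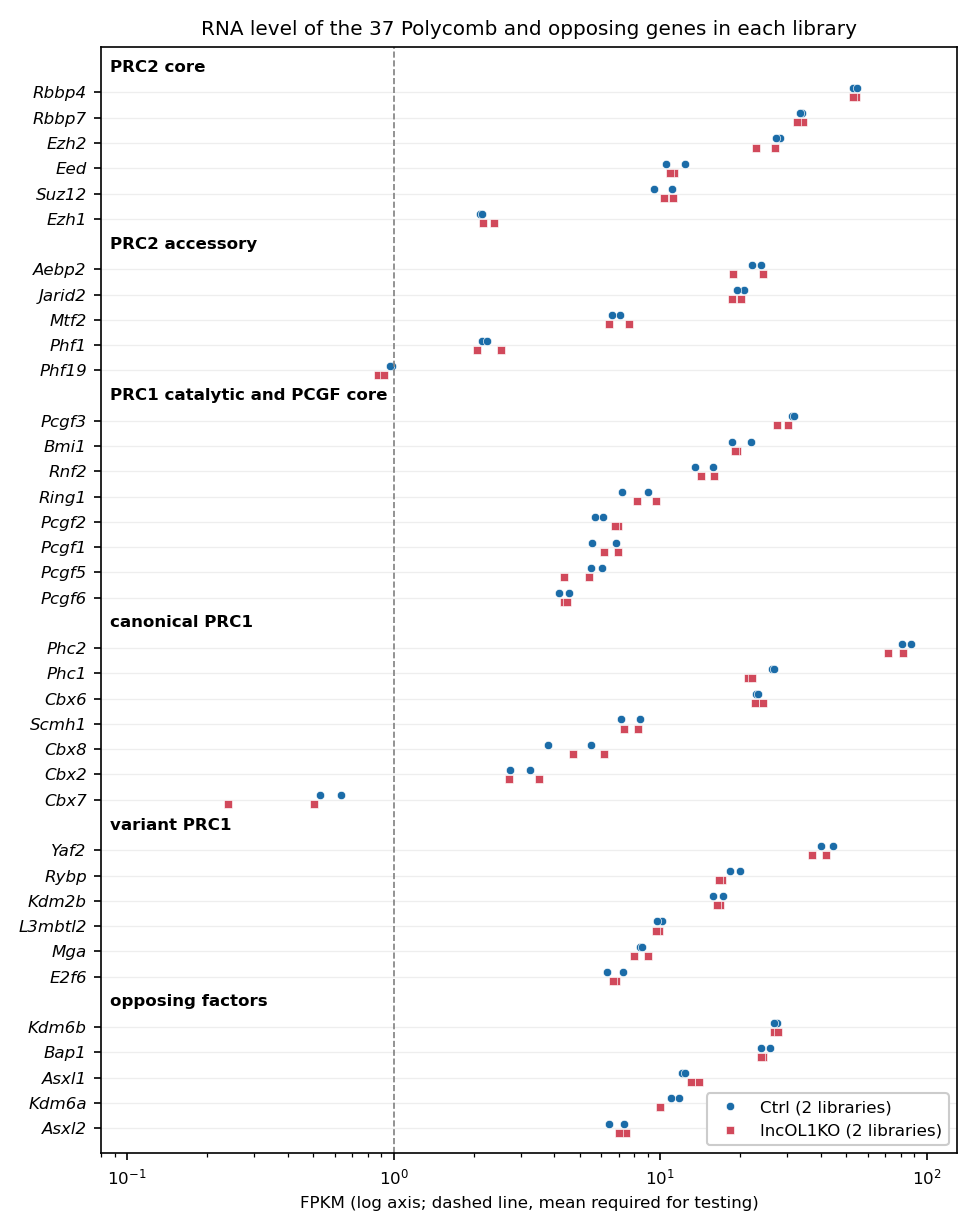
FPKM (log axis) of each gene in the 2 Ctrl libraries (circles) and the 2 lncOL1KO libraries (squares), grouped by role, with a dashed line at 1 FPKM. Phc2 is highest, Cbx7 and Phf19 lie under the line, and within most genes the libraries of the 2 groups lie close together.

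The PRC2 core was transcribed at uneven levels and showed no called difference. Suz12, the scaffold subunit (chromosome 11, 79993106 to 80034123, plus strand, mm10), had 9.52 and 11.1 FPKM in Ctrl and 11.2 and 10.4 FPKM in lncOL1KO libraries. The groups overlapped, and the difference was smaller than its SE (log2 fold change 0.061, SE 0.091, 95% interval -0.16 to 0.28, limma adjusted p = 0.857). Eed, the subunit that binds the methylated histone, had 12.3 and 10.5 FPKM in Ctrl and 11.3 and 10.9 FPKM in lncOL1KO libraries, with overlapping groups (log2 fold change -0.036, 95% interval -0.25 to 0.18). Rbbp4 and Rbbp7 encode histone-binding subunits that PRC2 shares with other chromatin complexes, and they were the most abundant core genes. Rbbp4 had 52.9 and 54.7 FPKM in Ctrl and 54.2 and 52.97 FPKM in lncOL1KO libraries, and Rbbp7 had 34.04 and 33.5 FPKM in Ctrl and 34.4 and 32.5 FPKM in lncOL1KO libraries, with overlapping groups for both. Their log2 fold changes were -0.0064 and -0.013, with intervals of -0.17 to 0.15 and -0.18 to 0.15. On the opposite strand, Gm26722 and Sync overlap 18.06% and 11.75% of the exonic length of Rbbp4, Txlng 7.42% of that of Rbbp7 and E230029C05Rik 12.63% of that of Eed (GENCODE M21), and without strand their reads cannot be told apart.

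Ezh2 and Ezh1, the alternative catalytic subunits, differed far more from each other than either did between groups. Ezh2 (chromosome 6, 47530274 to 47595030, minus strand, mm10) had 28.2 and 27.1 FPKM in Ctrl and 26.9 and 22.8 FPKM in lncOL1KO libraries, and Ezh1 (chromosome 11, 101191115 to 101226450, minus strand, mm10) had 2.10 and 2.14 FPKM in Ctrl and 2.16 and 2.38 FPKM in lncOL1KO libraries. Ezh2 was lower and Ezh1 higher in both knockout libraries than in both control libraries, and neither passed the test (log2 fold change -0.15, SE 0.092, 95% interval -0.38 to 0.066, limma adjusted p = 0.542 for Ezh2, and 0.067, SE 0.092, 95% interval -0.15 to 0.29, limma adjusted p = 0.838 for Ezh1). The ratio of Ezh2 to Ezh1 FPKM was 13.4 and 12.7 in Ctrl and 12.4 and 9.57 in lncOL1KO libraries. The lncOL1KO ratios lay below both Ctrl ratios, narrowly in replicate 1. The log2 difference was -0.26 with all libraries, -0.07 without knockout replicate 2 and -0.45 without knockout replicate 1. An exact two-sided permutation test of 2 against 2 libraries cannot go below p = 0.333, so the ratios are given as values with no test. Ezh2 made up 90.5% to 93.1% of the summed Ezh1 and Ezh2 FPKM in the 4 libraries.

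Ezh2 is known to follow the cell cycle in many tissues, so the proliferation markers stand beside it here. Of 26 tested, 2 were lower in the knockout, Top2a and Kif11, and 0 higher (limma), beside 0.783% lower over all genes tested. Their summed level was 236 and 238 FPKM in Ctrl and 199 and 192 FPKM in lncOL1KO libraries, and 23 of the 26 log2 fold changes were negative, with a median of -0.23. Top2a, topoisomerase II alpha, had 11.5 and 10.8 FPKM in Ctrl and 7.06 and 6.38 FPKM in lncOL1KO libraries (log2 fold change -0.66, limma adjusted p = 0.0174), Kif11, a mitotic kinesin, had a log2 fold change of -0.52 (limma adjusted p = 0.0484), and Rrm2, a subunit of ribonucleotide reductase, one of -0.54 (limma adjusted p = 0.0612). The authors' deposited table marks 9 of the 26 as significant, all lower, Top2a and Kif11 among them. Over all genes with a completed test it marks 4.04% as lower. Neither Top2a (limma adjusted p 0.0709 to 0.1304) nor Kif11 (0.159 to 0.250) passed with any 1 of the 4 libraries left out. The part of proliferating cells in the Ezh2 values was not tested.

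The PRC2 accessory genes showed no called difference either. Jarid2 and Aebp2 mark one form of PRC2 and were its most abundant accessory genes. Jarid2 had 20.7 and 19.5 FPKM in Ctrl and 20.03 and 18.6 FPKM in lncOL1KO libraries, with overlapping groups (log2 fold change -0.053, 95% interval -0.23 to 0.13). Aebp2 had 23.9 and 22.1 FPKM in Ctrl and 24.3 and 18.8 FPKM in lncOL1KO libraries, where knockout replicate 2 was the lowest and knockout replicate 1 the highest of the 4 (log2 fold change -0.10, 95% interval -0.39 to 0.19). The Polycomb-like proteins Mtf2, Phf1 and Phf19 mark the other form. Mtf2 led them, with 6.57 and 7.08 FPKM in Ctrl and 7.66 and 6.43 FPKM in lncOL1KO libraries, and made up 65.1% to 72.4% of their summed FPKM. Tmed5, on the opposite strand, overlaps 9.73% of the exonic length of Mtf2. Phf1 had 2.14 and 2.24 FPKM in Ctrl and 2.05 and 2.52 FPKM in lncOL1KO libraries, also with overlapping groups. The log2 fold changes of Mtf2 and Phf1 were 0.037 and 0.039, with intervals of -0.19 to 0.27 and -0.21 to 0.29. Phf19 stayed just under the filter, at 0.987 and 0.966 FPKM in Ctrl and 0.872 and 0.923 FPKM in lncOL1KO libraries. It was lower in both knockout libraries, by less than 0.15 FPKM, and with the filter set to 0.3 FPKM its limma adjusted p was 0.858.

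Among the PRC1 ligases, Rnf2 (RING1B) was at a higher level than Ring1 (RING1A). Rnf2 had 13.5 and 15.8 FPKM in Ctrl and 15.98 and 14.2 FPKM in lncOL1KO libraries, and Ring1 had 8.97 and 7.20 FPKM in Ctrl and 8.19 and 9.63 FPKM in lncOL1KO libraries. Both overlapped between groups, with log2 fold changes of 0.044 (95% interval -0.19 to 0.28) and 0.13 (-0.16 to 0.41). Rnf2 made up 59.6% to 68.7% of their sum.

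The PCGF genes, whose products define the forms of PRC1, were led by Pcgf3 and Bmi1 in all 4 libraries. Pcgf3, of a variant form, had 31.3 and 31.9 FPKM in Ctrl and 30.2 and 27.5 FPKM in lncOL1KO libraries and made up 39.8% to 43.1% of the summed FPKM of the 6 PCGF genes. It was lower in both knockout libraries without passing the test (log2 fold change -0.13, SE 0.075, 95% interval -0.31 to 0.053, limma adjusted p = 0.536). Pcgf5, which takes part in the same form as Pcgf3, had 6.07 and 5.48 FPKM in Ctrl and 5.39 and 4.35 FPKM in lncOL1KO libraries, also lower in both (log2 fold change -0.21, SE 0.11, 95% interval -0.47 to 0.044, limma adjusted p = 0.460). Pcgf1, of the form with Kdm2b, had 6.82 and 5.53 FPKM in Ctrl and 6.14 and 6.96 FPKM in lncOL1KO libraries, and Pcgf6, of the form with Mga and L3mbtl2, had 4.16 and 4.56 FPKM in Ctrl and 4.34 and 4.45 FPKM in lncOL1KO libraries. Both overlapped between groups, with log2 fold changes of 0.078 and 0.012 and intervals of -0.18 to 0.34 and -0.18 to 0.21.

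Bmi1 and Pcgf2 (MEL18), the PCGF partners of canonical PRC1, had opposite signs, but the sign of Bmi1 was not stable. With 1 library left out, the log2 fold change of Bmi1 ran from -0.18 to 0.046. Bmi1 had 18.6 and 21.99 FPKM in Ctrl and 19.5 and 19.04 FPKM in lncOL1KO libraries, with overlapping groups (log2 fold change -0.068, 95% interval -0.29 to 0.15). Pcgf2 had 5.70 and 6.09 FPKM in Ctrl and 6.98 and 6.75 FPKM in lncOL1KO libraries, higher in both knockout libraries at 116% of the control mean, with an unadjusted p of 0.0409 that did not pass after adjustment (log2 fold change 0.19, SE 0.075, 95% interval 0.011 to 0.37, limma adjusted p = 0.334). The ratio of Bmi1 to Pcgf2 was 3.27 and 3.61 in Ctrl and 2.79 and 2.82 in lncOL1KO libraries, lower in both knockout libraries. The log2 ratio differed by -0.29, and by -0.36 to -0.22 with each library left out in turn.

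**Figure D3:**
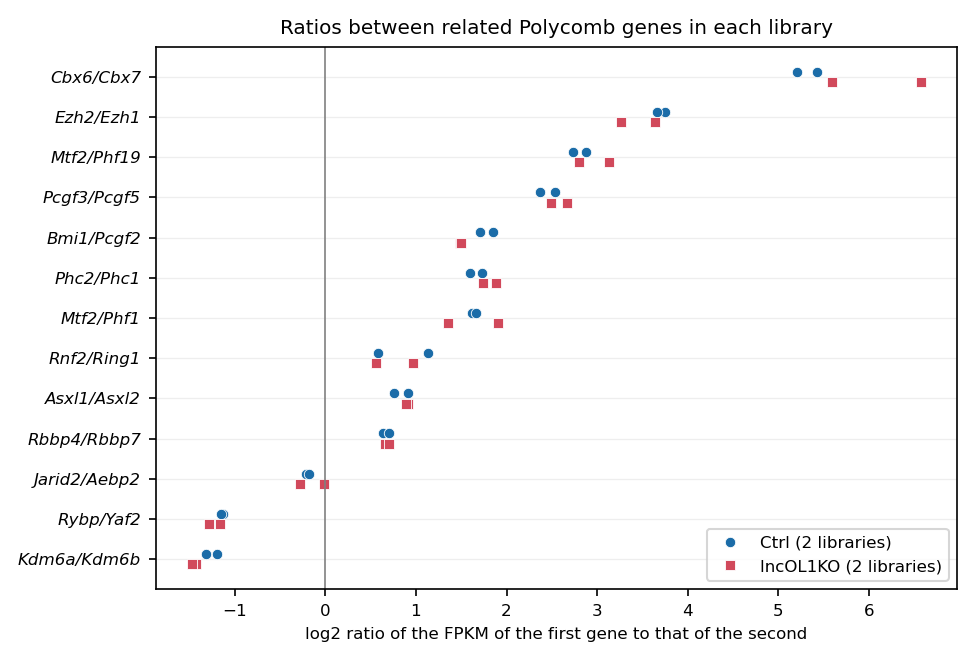
Log2 ratio of the FPKM of 2 related genes in each of the 2 Ctrl (circles) and 2 lncOL1KO (squares) libraries, for 13 pairs. The groups do not overlap in 6 pairs, lower in the knockout for Ezh2/Ezh1, Bmi1/Pcgf2, Kdm6a/Kdm6b and Rybp/Yaf2 and higher for Phc2/Phc1 and Cbx6/Cbx7, and the count was not compared with other gene pairs.

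Of all members, the canonical PRC1 gene Phc1 had the smallest p. Phc1 encodes a polyhomeotic protein, whose SAM domain joins PRC1 complexes into larger assemblies (chromosome 6, 122317731 to 122340227, minus strand, mm10). It had 26.2 and 26.8 FPKM in Ctrl and 21.3 and 22.1 FPKM in lncOL1KO libraries, a mean of 26.5 ± 0.436 FPKM for Ctrl and 21.7 ± 0.574 FPKM for lncOL1KO libraries (SD, n = 2 per group). Both knockout libraries were below both control libraries, at 81.9% of the control mean. The unadjusted p was 0.00528, and the call was not made after adjustment (log2 fold change -0.28, SE 0.068, 95% interval -0.44 to -0.11, limma adjusted p = 0.132). Over the 11 alternatives run, the limma adjusted p of Phc1 was 0.101 to 0.435. The authors' deposited table, made from the same libraries, gives 27.02 FPKM for Ctrl and 21.4 FPKM for lncOL1KO, with a log2 fold change of Phc1 of -0.34 and q = 0.0205, and marks it as significant. It was the 1 member so marked in the authors' deposited table among 36 with a completed test, where 5.78% of all genes with a completed test were marked (4.04% as lower).

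Phc2, a second polyhomeotic gene, was the most abundant member, above 92.4% of the genes tested. It had 87.2 and 81.03 FPKM in Ctrl and 71.3 and 81.5 FPKM in lncOL1KO libraries, where knockout replicate 2 lay between the control libraries (log2 fold change -0.14, 95% interval -0.35 to 0.073, limma adjusted p = 0.578). In the authors' deposited table its test has the status of a failed estimate, so no fold change is quoted from it. The ratio of Phc2 to Phc1 was 3.33 and 3.02 in Ctrl and 3.35 and 3.69 in lncOL1KO libraries. Scmh1, a further canonical PRC1 gene related to fly Sex comb on midleg, had 7.11 and 8.39 FPKM in Ctrl and 7.30 and 8.23 FPKM in lncOL1KO libraries, with overlapping groups and a log2 fold change of 0.0048.

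The CBX readers were uneven, with Cbx6 at 22.9 and 23.3 FPKM in Ctrl and 22.7 and 24.3 FPKM in lncOL1KO libraries. The groups overlapped (log2 fold change 0.022, 95% interval -0.15 to 0.19). Npcd shares 9.70% of the exonic length of Cbx6 on the same strand. Cbx8 had 5.52 and 3.79 FPKM in Ctrl and 4.69 and 6.17 FPKM in lncOL1KO libraries and Cbx2 2.72 and 3.25 FPKM in Ctrl and 2.72 and 3.50 FPKM in lncOL1KO libraries, both with overlapping groups and wide intervals (-0.21 to 0.60 and -0.25 to 0.34). Cbx7, the reader best known from embryonic stem cells, was near the bottom of the range, at 0.531 and 0.633 FPKM in Ctrl and 0.239 and 0.503 FPKM in lncOL1KO libraries. Both knockout libraries were lower, but knockout replicate 2 was close to control replicate 1, and with the filter set to 0.3 FPKM the limma adjusted p of Cbx7 was 0.523 (log2 fold change -0.21, 95% interval -0.51 to 0.08). In the authors' deposited table the log2 fold change of Cbx7 is -0.80 with q = 0.398, on a scale with no 1 added to the FPKM. These 2 fold changes are therefore not alike in scale. The knockout mean of the libraries was 63.7% of the control mean.

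The variant PRC1 genes were led by Yaf2, which had 40.2 and 44.4 FPKM in Ctrl and 41.8 and 37.3 FPKM in lncOL1KO libraries, with overlapping groups (log2 fold change -0.096, 95% interval -0.31 to 0.12). Its paralog Rybp, which like Yaf2 binds the ligase in place of a CBX subunit, had 18.3 and 19.96 FPKM in Ctrl and 17.1 and 16.6 FPKM in lncOL1KO libraries. Rybp was lower in both knockout libraries, at 88.1% of the control mean, and did not pass (log2 fold change -0.17, SE 0.074, 95% interval -0.35 to 0.0058, limma adjusted p = 0.380). The annotation holds a pseudogene, Rybp-ps, so how reads were divided between them is uncertain. The authors' deposited table gives a log2 fold change of -0.22 with p = 0.00680 and q = 0.0942 for Rybp. Kdm2b, which brings a variant PRC1 to unmethylated CpG islands, had 17.1 and 15.8 FPKM in Ctrl and 16.8 and 16.4 FPKM in lncOL1KO libraries, with overlapping groups (log2 fold change 0.011, 95% interval -0.16 to 0.19). Rnf34, on the opposite strand and at a mean of 24.5 FPKM, overlaps 10.7% of its exonic length. L3mbtl2, E2f6 and Mga belong to a form of PRC1 that represses germline genes. L3mbtl2 had 10.1 and 9.69 FPKM in Ctrl and 9.87 and 9.61 FPKM in lncOL1KO libraries, and 3.18% of its exonic length lies under Chadl on the opposite strand, which was at 48.1 FPKM. E2f6 had 6.31 and 7.27 FPKM in Ctrl and 6.84 and 6.64 FPKM in lncOL1KO libraries, and Mga had 8.39 and 8.51 FPKM in Ctrl and 9.01 and 7.95 FPKM in lncOL1KO libraries. All 3 overlapped between groups, with log2 fold changes of -0.021, -0.0067 and 0.0026 and intervals between -0.21 and 0.20.

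The opposing factors were all expressed, and none passed the test. Kdm6b, an inducible demethylase of the PRC2 mark, had 27.4 and 26.8 FPKM in Ctrl and 26.7 and 27.6 FPKM in lncOL1KO libraries, with overlapping groups and the log2 fold change nearest to 0 of all members (0.0022, 95% interval -0.16 to 0.16). Kdm6a, its X-linked paralog (chromosome X, 18162667 to 18279358, plus strand, mm10), had 10.99 and 11.7 FPKM in Ctrl and 9.97 and 9.95 FPKM in lncOL1KO libraries. Both knockout libraries were lower, at 87.6% of the control mean, with an unadjusted p of 0.0475 (log2 fold change -0.17, SE 0.071, 95% interval -0.34 to -0.0026, limma adjusted p = 0.356). The authors' deposited table gives a log2 fold change of -0.19 with q = 0.247 for Kdm6a. The ratio of Kdm6a to Kdm6b was 0.401 and 0.438 in Ctrl and 0.373 and 0.361 in lncOL1KO libraries.

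Kdm6a escapes X inactivation, so genes that depend on the sex of the animals were set beside it, after its values were seen. Xist, the RNA of the inactive X, had 20.1 and 23.7 FPKM in Ctrl and 16.9 and 19.9 FPKM in lncOL1KO libraries, and Uty, the Y-linked relative of Kdm6a, had 3.79 and 4.73 FPKM in Ctrl and 4.14 and 4.58 FPKM in lncOL1KO libraries. All 4 libraries thus held both Xist and Uty RNA. Xist was lower in both knockout libraries, and so was the X-linked Ddx3x (71.2 and 73.98 FPKM in Ctrl and 68.1 and 65.1 FPKM in lncOL1KO libraries). Of 4 Y-linked genes, Uty and Ddx3y overlapped between groups, while Eif2s3y (27.1 and 28.04 FPKM in Ctrl and 32.8 and 28.5 FPKM in lncOL1KO libraries) and Kdm5d (6.57 and 6.69 FPKM in Ctrl and 7.81 and 7.21 FPKM in lncOL1KO libraries) were higher in both knockout libraries. The X-linked Eif2s3x and Kdm5c overlapped, and none of these 8 genes passed the limma test (adjusted p 0.421 to 0.996). The part of the sex of the animals in the Kdm6a values was not tested.

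Bap1, the deubiquitinase that removes the PRC1 mark, had 25.8 and 23.9 FPKM in Ctrl and 24.4 and 23.9 FPKM in lncOL1KO libraries, with overlapping groups (log2 fold change -0.038, 95% interval -0.21 to 0.13). Its partner Asxl1 had 12.03 and 12.4 FPKM in Ctrl and 14.00 and 13.04 FPKM in lncOL1KO libraries, higher in both knockout libraries without passing (log2 fold change 0.14, SE 0.072, 95% interval -0.036 to 0.31, limma adjusted p = 0.486). Asxl2, the alternative partner, had 6.41 and 7.33 FPKM in Ctrl and 7.43 and 7.03 FPKM in lncOL1KO libraries, with overlapping groups (log2 fold change 0.066, 95% interval -0.14 to 0.27). Asxl1 was the more abundant of the pair in all 4 libraries, with a ratio to Asxl2 of 1.88 and 1.69 in Ctrl and 1.88 and 1.86 in lncOL1KO libraries.

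The authors' deposited table and the per-library values were close for most members but not for all. Its pooled control level was 0.812 to 1.18 times the mean of the control libraries, lowest for Kdm6b (22.00 FPKM) and highest for Mga (9.93 FPKM). Its pooled knockout level was 0.754 to 1.18 times the mean of the knockout libraries, for the same 2 genes. The ratios of the 2 groups thus differ for some members, as for Ring1 (0.910 for control and 0.834 for knockout). Of 34 members with a fold change in both, 27 had the same sign. The authors' deposited table has 25 negative and 11 positive log2 fold changes among its 36 members, against 17 negative and 18 positive in the fit across libraries. Both use the same 4 libraries, so neither is a check of the other.

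Genes listed with Polycomb or with its opposing factors, outside the 37, had no difference called by limma. The authors' deposited table marks 3 of them as significant, all lower. Of all genes with a completed test there, 5.78% were marked (4.04% as lower). Both lists are broad and hold general chromatin genes, not all of which are known to act with or against Polycomb. Of 34 genes in the further Polycomb list 27 were tested, with 0 called by limma in either direction. At an unadjusted limma p under 0.05, 1 was higher and 3 lower, beside 13.7% of all genes tested in either direction. The median log2 fold change of the 27 was -0.0020. Among the smallest p-values were those of Lcorl, which encodes a PRC2 cofactor (log2 fold change -0.31, limma adjusted p = 0.177) and Auts2, of a variant PRC1 in neurons (-0.30, adjusted p = 0.198). In the authors' deposited table, 2 of 27 were significant, Lcorl with a log2 fold change of -0.28 (q = 0.0107) and Auts2 with -0.46 (q = 0.0156). Phc3 had a failed estimate in the library tables and has no value here. All 32 genes in the further opposing list were tested, among them histone methyltransferases of the Trithorax group, acetyltransferases and SWI/SNF subunits. Limma called 0 of them. At an unadjusted limma p under 0.05, 1 was lower, beside the same 13.7%, and the median log2 fold change was 0.031. Usp22, a histone deubiquitinase, had 88.97 and 95.9 FPKM in Ctrl and 79.1 and 81.5 FPKM in lncOL1KO libraries (log2 fold change -0.20, limma adjusted p = 0.290). It was the 1 of 28 that the authors' deposited table marks as significant (Usp22, log2 fold change -0.26, q = 0.00141). Setd1a and Paxip1, of H3K4 methyltransferase complexes, differed by 0.15 and 0.16 on the log2 scale, with limma adjusted p = 0.404 and 0.441.

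The genes best known as Polycomb targets were silent or low in both groups. Of 39 Hox genes, 36 were listed at 0 in all 4 libraries, and the highest single value was 0.200 FPKM (Hoxa13, knockout replicate 2), so none reached the filter. The depth of the libraries is not given in the files, so no limit can be set on a gene listed at 0. Cdkn2a and Cdkn2b of the Ink4 locus, which Bmi1 is known to repress, were low but above the filter. Cdkn2b had 1.53 and 1.95 FPKM in Ctrl and 1.70 and 2.23 FPKM in lncOL1KO libraries (log2 fold change 0.11, limma adjusted p = 0.801, and -0.015 on the log2 scale without knockout replicate 2), and Cdkn2a, named after its values were seen, had 3.002 and 2.35 FPKM in Ctrl and 2.48 and 3.30 FPKM in lncOL1KO libraries. Of the 7 genes of the list of cell cycle inhibitors, all tested, 0 were called by limma (0 with an unadjusted p under 0.05) or in the authors' deposited table, and Cdkn1c and Cdkn1b differed by 0.21 and 0.11 on the log2 scale, with limma adjusted p = 0.452 and 0.552. RNA levels do not measure the Polycomb proteins, their binding to lncOL1 or histone marks, none of which was analysed here.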

How the data were processed

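RNA-seq libraries of 4 samples were prepared from Trizol-extracted total RNA with a TruSeq kit from Illumina, per the labels' protocols. The tools named in the submitters' processing notes are CASAVA, TopHat, Cufflinks and Cuffdiff, with the build mm10. No source used here gives versions, options, annotation or the strand setting. The authors deposited FPKM per gene for each sample, with a status, and a table comparing the groups by Cuffdiff, with pooled FPKM, log2 fold change, p-value and q-value, per the file headers. The files do not give read depth. Summed FPKM was 372925 to 382573 per library.

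Rows of 1 symbol were summed (258 symbols), and 9 symbols with a failed status were left out. Genes whose mean reached 1 FPKM were tested on log2(FPKM + 1) with limma 3.58.1 in R 4.3.3 (lmFit, eBayes with trend; 2 residual and 4.6 prior degrees of freedom), with no covariate, and p-values adjusted by Benjamini-Hochberg over all 11361 genes. The fit was tested on simulated data, where 54% of the genes given a log2 change of 0.5 were called, so changes of that size can be missed. The alternatives were another pseudocount, other filters, quantile and TPM scaling (FPKM rescaled to a common sum), no trend, a replicate block and each library left out. 12 members share exon bases with a gene on the other strand in GENCODE M21, up to 18.1% of exonic length (Rbbp4), where reads could not be told apart if strand was not used. The members and lists were chosen with earlier results of these data known. All members are named, and of the other lists the up to 3 genes of smallest p, any called gene and, for cell types, the 3 of highest level. Some genes that this rule would name are not reported here.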

Additional observations from a re-analysis of the deposited data

How the results depend on the processing

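The number of members called was 0 under each of the 11 alternatives, and the smallest limma adjusted p of any member under any of them was 0.101 (Phc1 with the replicate block). The number of genes called over the whole table did change. It was 4 with no filter (1 higher, 3 lower), 341 with the replicate block (158 higher, 183 lower), and 33 to 75 with 1 library left out (18 to 36 higher, 15 to 39 lower). Whether replicate numbers pair the samples is not known. The deviations of same-numbered libraries correlated at -0.052 across genes, but 2 libraries per group give a single such value, which cannot decide it. The cause of the changes in the number of genes called was not tested, except that leaving out a library leaves fewer samples.

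Of 245 log2 fold changes of members under the 7 alternatives that keep all libraries, 241 kept their direction and stayed uncalled. The others turned after quantile normalization, to 0.0014 for Rbbp4, -0.013 for Mga, -0.0096 for Scmh1 and -0.0036 for Pcgf6, with 0 called. The other filters, no trend and the replicate block leave each fold change as it was and can change only its p-value. Only the pseudocount, quantile and TPM settings could turn a sign, so the 241 overstates how much was tested. The median over members, 0.0022 with all libraries, was -0.036 to -0.0028 with 1 library left out. 12 members, among them Phc1, Kdm6a, Rybp, Pcgf2, Asxl1 and Ezh2, kept their sign whichever library was left out, and 23 did not. All those named are among the 9 tested members whose groups did not overlap. For these 9, leaving out 1 library cannot turn the sign, so a kept sign only restates the separation. For these 23 the log2 fold changes with 1 library left out were -0.030 to 0.017 for Rbbp4, -0.053 to 0.026 for Rbbp7, -0.020 to 0.024 for Kdm6b, -0.089 to 0.013 for Bap1, -0.026 to 0.070 for Cbx6 and -0.28 to 0.074 for Aebp2. They were -0.18 to 0.046 for Bmi1, -0.044 to 0.067 for Kdm2b, -0.064 to 0.15 for Rnf2, -0.14 to 0.069 for Eed, -0.038 to 0.16 for Suz12 and -0.050 to 0.0066 for L3mbtl2. A further group had -0.013 to 0.27 for Ring1, -0.078 to 0.084 for Mga, -0.10 to 0.11 for Scmh1, -0.018 to 0.15 for Asxl2, -0.074 to 0.15 for Mtf2 and -0.095 to 0.082 for E2f6. The last had -0.052 to 0.21 for Pcgf1, -0.029 to 0.42 for Cbx8, -0.042 to 0.066 for Pcgf6, -0.097 to 0.18 for Cbx2 and -0.064 to 0.14 for Phf1. Outside the members, Cdkn2b was at -0.015 to 0.24 with 1 library left out. With 1 library left out, the difference in log2 ratio was -0.45 to -0.07 for Ezh2/Ezh1, -0.37 to 0.18 for Rnf2/Ring1 and -0.29 to 0.26 for Mtf2/Phf1.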
